A study of Mus musculus with 27 samples.

Results

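Npas4 is 1 of the 59489 entries of the deposited expression table, and 1 of the 23508 that carry a gene symbol. It was taken as the row with that symbol (FASTDB model GSMG0019959, Ensembl gene ENSMUSG00000045903), and is described here in all 27 libraries. The libraries hold polyadenylated RNA of wild-type mouse primary cortical cells, isolated at embryonic day 16.5 and kept in culture for 14 days. Every library, controls included, comes from cells given an inhibitor of transcription, and there are 9 groups of 3. In 9 libraries the inhibitor was DRB (50 µM, 2 h), which blocks elongation by RNA polymerase II, and the cells were unstimulated, given bicuculline (20 µM, 1 h) or given BDNF (50 ng/mL, 1 h). Bicuculline blocks GABA-A receptors and so raises the activity of cortical networks, and BDNF is the growth factor that activates the receptor TrkB. In the other 18 libraries the inhibitor was triptolide (1 µM, 3 h), which blocks initiation of transcription, the cells were unstimulated or given bicuculline (20 µM, 1 h), and RNA came from whole cells, nuclei or cytosol. For the DRB libraries the labels name no RNA fraction.

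NPAS4 is a transcription factor of the bHLH-PAS family, whose members bind DNA as pairs, and its partners are ARNT and ARNT2. Its gene is a neuronal immediate early gene: it is nearly silent in resting neurons and is switched on by calcium entry after synaptic activity. In neurons the protein regulates genes that set the number of inhibitory synapses, Bdnf among them, and it is found with ARNT2 in a form of the NuA4 chromatin complex. The series concerns retained introns in neurons. The deposited values give 1 level per gene, so reads from spliced and unspliced Npas4 RNA are not separated here.

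The deposited model spans chr19:4984354-4990316 (mm10, minus strand). GENCODE M21 annotates 3 transcripts there. Npas4-201 is the coding one, with 8 exons, 7 introns, a length of 3622 bp and a protein of 802 residues. Npas4-202 is annotated as a retained-intron transcript of 3791 bp: its exon 4 runs through introns 4 and 5 of Npas4-201. Npas4-203, annotated for nonsense-mediated decay, has 7 exons and lacks the fifth exon of Npas4-201 (110 bp). Intron 4 (187 bp) lies at chr19:4987888-4988074 and intron 5 (327 bp) at chr19:4987451-4987777. Intron 4 is shown as an example of the kept sequence, whose reads would count toward the gene if the counted model includes it. It is read on the minus strand from the GENCODE transcript, and capitals mark the splice site dinucleotides at both ends.
Npas4 intron 4: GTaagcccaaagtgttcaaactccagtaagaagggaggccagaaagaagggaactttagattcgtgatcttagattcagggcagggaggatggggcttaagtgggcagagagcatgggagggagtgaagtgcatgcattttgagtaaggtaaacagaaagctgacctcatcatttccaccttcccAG

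**Figure D1:**
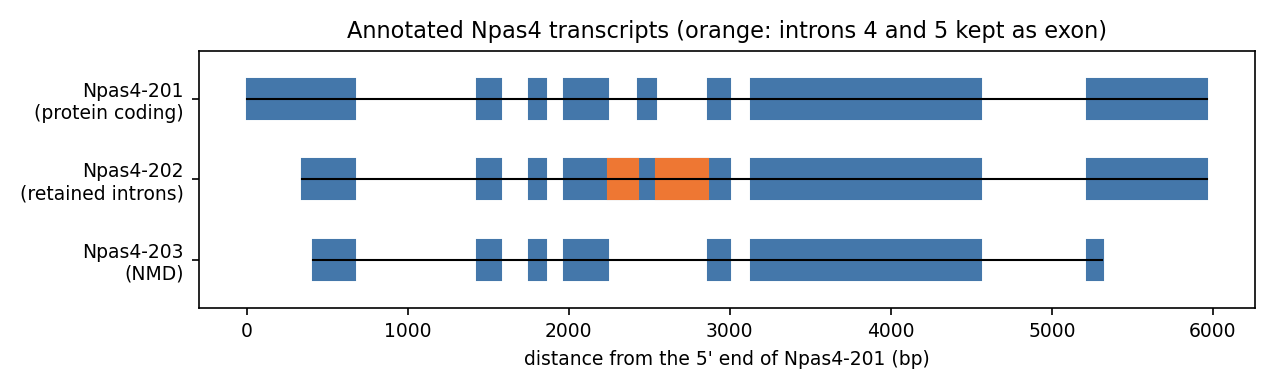
Annotated Npas4 transcripts of GENCODE M21, drawn to scale by distance in bp from the 5′ end of Npas4-201; boxes are exons and lines introns. Npas4-202 keeps introns 4 (187 bp) and 5 (327 bp), in orange, and Npas4-203 lacks the fifth exon of Npas4-201.

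The RefSeq promoter window of Npas4 (GRCm38.p6, chr19:4989922-4990221, minus strand, 250 bp before to 50 bp after the start) holds 2 copies of TGACGTC, which is all but the last base of TGACGTCA, the cAMP response element that CREB binds. Binding was not measured here. GENCODE starts Npas4-201 345 bp further upstream, so the window lies within its first exon and 2 stretches of 30 bases are shown. In the first stretch, capitals mark TGACGTC, once on each strand and with no overlap, and in the second they mark TATAA.
Npas4 response element pair, chr19:4990129-4990158: ccgttcGACGTCAcgggaTGACGTCggaag
Npas4 TATA stretch, chr19:4989981-4990010: ctgtcaggagctaTATAAggcggatcgagg
Motifs were searched on both strands. Of 32544 RefSeq promoter windows of the same length, 3.22% hold TGACGTC at least once and 0.129% at least 2 times without overlap; TGACGTCA reads the same on both strands, so a window with 1 full element has 2 overlapping matches, which count once. The shorter TGACG, which lies within it, is in 20.9% of windows, and TATAA, present once here, is in 24.8%. The window has no TGACGTCA (1.80% of windows), no E-box CANNTG (72.3%), no TCGTG (16.1%) and no CArG box (1.64%). Its GC content was 69.3%, against a median of 53.0% over all windows.

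The estimated depth of a library was 83374476 to 147883996 fragments in the DRB experiment and 67554944 to 89400972 in the triptolide experiment. Replicate 2 of each DRB group lay apart from replicates 1 and 3 on the first principal component of that experiment (51.5% of the variance), and Npas4 values are also given without replicate 2. Under triptolide, replicate 2 is another set of libraries by the labels. Of the markers of neurons, all 5 of excitatory, 5 of inhibitory and 4 of neurons in general had a mean of at least 1 FPKM in both experiments, and so had 4 of 4 astrocyte markers. Those of the oligodendrocyte lineage were present except Mog (4 of 5). Of 4 microglial markers 1, Aif1, had such a mean and Csf1r, Cx3cr1 and P2ry12 did not, with a summed level of 3.05 to 6.14 FPKM under DRB and 1.47 to 3.56 under triptolide. The vascular markers Cldn5, Kdr and Pecam1 did not reach 1 FPKM. In bulk RNA, fewer cells of a type and less RNA per cell cannot be told apart.

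Npas4 varied 181-fold between the lowest and highest group mean. From lowest to highest, the means were 0.897 ± 0.254 FPKM (SD, n = 3) in the cytosol of unstimulated cells under triptolide, 1.37 ± 0.267 in whole unstimulated cells, 2.02 ± 0.616 in the cytosol after bicuculline, 2.30 ± 0.547 in unstimulated nuclei, 2.4 ± 0.624 in whole cells after bicuculline and 2.53 ± 0.703 in nuclei after bicuculline. The DRB groups followed with 5.87 ± 2.81 unstimulated, 74.5 ± 15.4 after BDNF and 162 ± 35.2 after bicuculline. The lowest group overlapped the next by no library, and neither did each DRB group and the one below it. The 4 other neighbouring pairs in this order, all under triptolide, overlapped. Replicate 2 was the lowest library in all 6 triptolide groups and the highest in all 3 DRB groups. The values rest on about 186 fragments in the lowest library and 73014 in the highest, a counting error of 7.33% and 0.370%, which is below the spread between the libraries of each group.

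**Figure D2:**
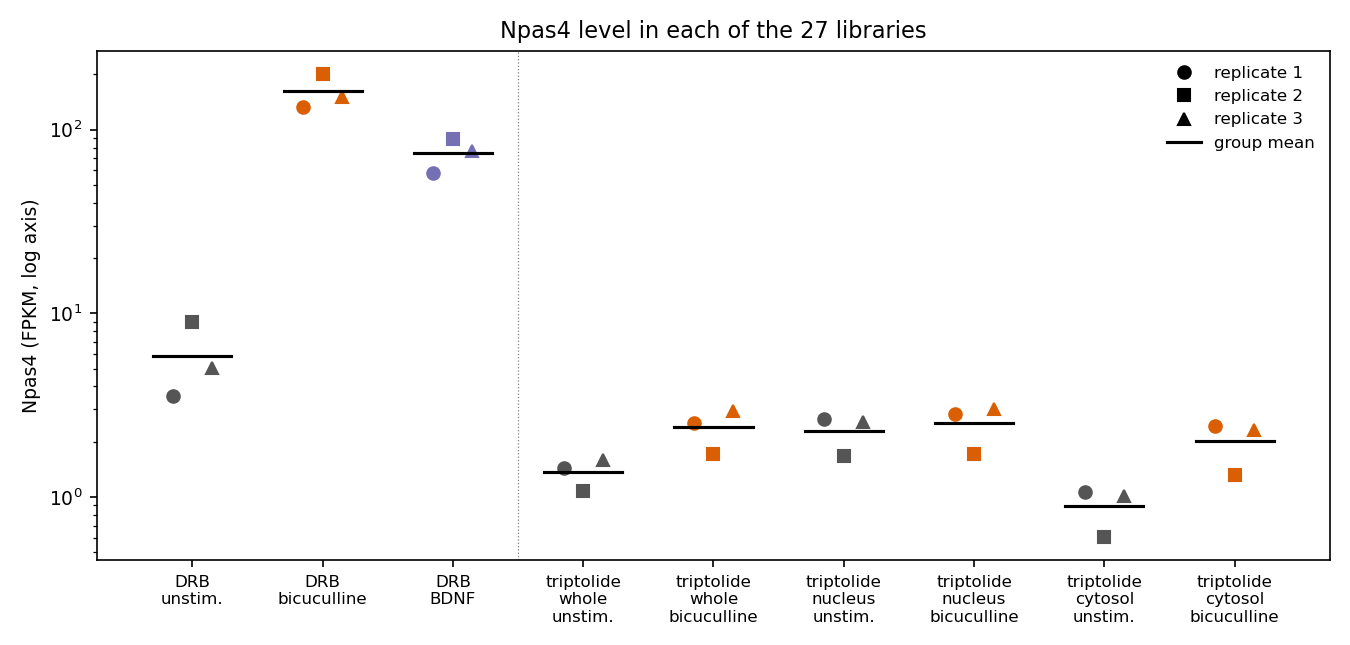
Npas4 level in FPKM (log axis) in each of the 27 libraries, by group; symbols give the replicate number and bars the group mean of 3 libraries. The bicuculline libraries under DRB lie between 133 and 201 FPKM, and all 18 triptolide libraries lie between 0.605 and 3.02 FPKM.

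Under DRB, bicuculline took Npas4 to among the most abundant mRNAs of the cells. The unstimulated libraries held 3.57, 9.0 and 5.03 FPKM in replicates 1, 2 and 3, the bicuculline libraries 133, 201 and 151 FPKM. The groups were far apart, and replicate 2 was highest in both. Among all entries of a library, Npas4 ranked between 6904 and 9673 in unstimulated cells and between 253 and 492 after bicuculline. Within replicate numbers the level was 37.4, 22.4 and 30.1 times higher, on average 29.9 ± 7.51 (SD, n = 3). The smallest fold was that of replicate 2, which had the highest unstimulated level and also the largest gain in FPKM (192, against 130 and 146). In limma's fit across 13321 genes the log2 change on the scale of FPKM + 0.5 was 4.74 ± 0.30 (SE, adjusted p = 1.50e-04), the largest of all genes tested. It was 4.91 without replicate 2 (adjusted p = 4.16e-04).

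BDNF raised Npas4 as well. The BDNF libraries held 58.3, 89.0 and 76.1 FPKM, above every unstimulated library and below every bicuculline library. Npas4 ranked between 841 and 1436 in them. The fold over unstimulated cells was 16.3, 9.88 and 15.1, on average 13.8 ± 3.43 (SD, n = 3), and limma gave a log2 change of 3.63 ± 0.30 (adjusted p = 5.52e-04), the sixth largest of 13321. It was 3.82 without replicate 2 (adjusted p = 5.96e-04). Both comparisons use the same 3 unstimulated libraries.

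The level after bicuculline was 2.29, 2.26 and 1.99 times that after BDNF in replicates 1, 2 and 3, on average 2.18 ± 0.167 (SD, n = 3). The log2 difference, BDNF minus bicuculline, was -1.12 ± 0.30 and fell short of the threshold in limma's test (adjusted p = 0.700). With replicate number as a block its SE was 0.12 and it passed (adjusted p = 0.0137), among 0.0901% of genes called lower that way. Only 1 gene had a more negative difference. In fits with the block that left out 1 of the 6 libraries the adjusted p ran from 0.0162 to 0.118, and 3 of the 6 passed. The call was lost without bicuculline library 1, BDNF library 1 or BDNF library 2.

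The immediate early genes, those a stimulus switches on without new protein synthesis, were listed as 24 genes beside Npas4, of which 22 were tested under DRB. A gene could enter the fit through its stimulated libraries alone, so the counts that rose are not independent of the filter. Maff, for example, had means of 0.489 FPKM unstimulated, 3.52 after bicuculline and 2.25 after BDNF. After bicuculline 17 of 22 rose (limma adjusted p under 0.05, as 0.308% of all genes did; 0.571% with replicate number as a block), with a median log2 change of 1.60 against 0.0035 over all genes. Arc (4.40), a postsynaptic protein gene, and Fosb (4.04) and Fos (3.64), subunits of the transcription factor AP-1, came nearest to Npas4 in size. After BDNF 17 of 22 rose too, against 0.638% of all genes (1.46% with the block), with a median of 2.25. Arc (6.44), Fosb (4.20), Fos (3.95) and the zinc finger factor genes Egr4 (3.87) and Egr1 (3.18) were among them. Between the stimuli, 6 of the 22 were higher after BDNF and 0 lower, while 0.113% of all genes were higher and 0.015% lower. Those 6 were Arc (2.03), Ier2 (1.87), Egr1 (1.71), Egr2 (1.62), Egr4 (1.61) and Btg2 (1.29). With replicate number as a block 8 of the 22 were higher after BDNF and 2 lower. That fit called 72 of all genes in either direction, with 0.0901% of all genes lower. The 2 lower ones, as Npas4 was, were Gadd45g (-0.88, adjusted p = 0.00515), a growth arrest gene, and Maff (-0.55, adjusted p = 0.0286), a small MAF factor.

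No other tested member of the bHLH-PAS family was called under DRB. Of 18 relatives 12 were tested, and limma called 0 of them after bicuculline, 0 after BDNF and 0 between the stimuli, with 0 at an unadjusted p under 0.05 and 0 called with replicate number as a block in each case. Of all genes, 0.308% rose after bicuculline and 0.638% after BDNF. Between the stimuli 0.113% were higher and 0.015% lower. A count of 0 of 12 is near these shares. The partner Arnt2 was far above Npas4 in unstimulated cells, at 56.4 ± 2.72 FPKM (SD, n = 3), and stood at 52.7 ± 6.85 after bicuculline and 59.2 ± 1.51 after BDNF. Its log2 changes were -0.10 ± 0.09 and 0.07 ± 0.09. Arnt, which the table merges with Gm4349, stood at 5.21 ± 0.628, 5.48 ± 0.817 and 5.67 ± 0.407 FPKM in the same order. FPKM values are scaled to gene model length, but how reads were counted is not described, so levels of different genes compare only roughly. By these values Npas4 was below Arnt2 in every unstimulated library and above it in every bicuculline library. After BDNF the ranges overlapped (58.3 to 89.0 against 57.8 to 60.8 FPKM). Of the paralogues named for the same domains, Npas1 lay at 2.0 to 2.27 FPKM in the means of the 3 groups, Npas2 at 2.58 to 2.94 and Npas3 at 6.77 to 7.93.

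**Figure D3:**
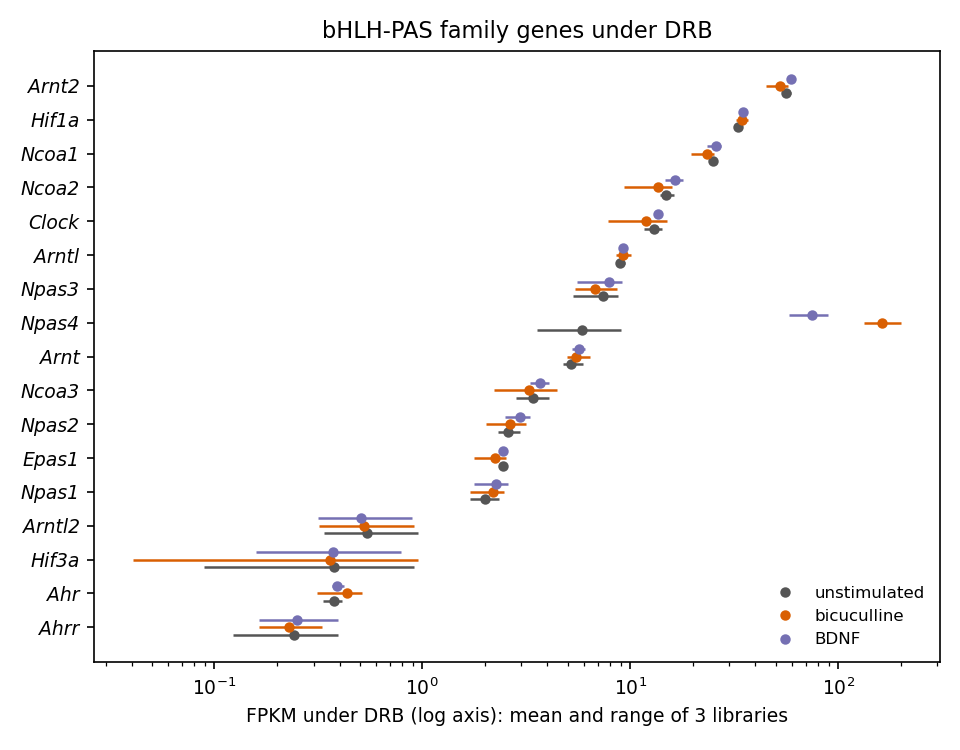
FPKM (log axis) of the bHLH-PAS family genes in the DRB libraries, with points for the mean of 3 libraries and lines from the lowest to the highest; genes whose mean stayed under 0.2 FPKM in all 9 groups are left out. Npas4 goes from 5.87 FPKM to 74.5 with BDNF and 162 with bicuculline. No other gene shown that was tested was called, where 0.638% of all genes rose with BDNF and 0.308% with bicuculline.

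The genes of the signalling steps that lead to Npas4 numbered 25, all tested. After bicuculline under DRB 0 of 25 were called by limma, 0 at an unadjusted p under 0.05 and 0 with the block. Of all genes 0.308% rose, and 0.571% with the block, so a count of 0 of 25 is near these shares. After BDNF 1 of 25 was called, where 0.638% of all genes rose. It was Srf, whose protein binds the CArG box of many immediate early genes, which rose from 11 ± 1.33 to 23.4 ± 3.47 FPKM (SD, n = 3; log2 change 1.05 ± 0.13, adjusted p = 0.00641). Of 8 genes that earlier work reported as targets of NPAS4 or as dependent on it, 1 rose after bicuculline, where 0.308% of all genes did. This was Plk2, a kinase gene of synaptic scaling, which held 17.0 ± 0.435 FPKM unstimulated and 36.4 ± 2.54 after bicuculline (log2 change 1.08 ± 0.07, adjusted p = 1.50e-04). After BDNF 0 of the 8 were called by limma, 1 at an unadjusted p under 0.05, and Plk2 (0.36) with the block (adjusted p = 0.0488). Plk2 was lower after BDNF than after bicuculline, the direction of Npas4 (-0.72 ± 0.07, adjusted p = 0.00508), when 0.015% of all genes were. Of 17 subunits of NuA4, 0 were called after either stimulus, with 0 and 1 at an unadjusted p under 0.05 and 0 with the block. A count of 0 of 17 is near the shares of all genes that rose, 0.308% after bicuculline and 0.638% after BDNF.

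Under triptolide the level of Npas4 was low in every library, and bicuculline went with more of it in the cytosol and in whole cells. In the cytosol the unstimulated libraries held 1.07, 0.605 and 1.01 FPKM and the bicuculline libraries 2.43, 1.31 and 2.31 FPKM, with no overlap. Within replicate numbers the level was 2.27, 2.17 and 2.28 times higher, on average 2.24 ± 0.0620 (SD, n = 3), a spread much smaller than that of the levels themselves. Counting error was 3.82 to 7.33% for these levels, larger than the spread of the folds, so the small SD does not measure precision. The log2 change of 0.84 ± 0.23 missed the threshold of limma's test (adjusted p = 0.0595) and passed it once replicate number was a block (SE 0.08, adjusted p = 4.21e-05). It passed in all 6 fits with the block that left out 1 library. Without replicate 2, the lowest library of every triptolide group, it also passed limma's test (0.90 ± 0.10, adjusted p = 0.0199). Leaving out that number narrows the spread, so this pass is not separate support. With that block 14.5% of all genes were called higher. The change was the fifteenth largest of 14205 genes, whose median was 0.08.

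In the nucleus the levels barely moved. Unstimulated nuclei held 2.66, 1.67 and 2.56 FPKM, and nuclei after bicuculline 2.85, 1.73 and 3.02 FPKM. The groups overlapped, and the fold within replicate numbers was 1.07, 1.03 and 1.18, on average 1.09 ± 0.0760 (SD, n = 3). The log2 change of 0.11 ± 0.23 did not pass limma's test (adjusted p = 0.869), nor with the block (adjusted p = 0.406), where 7.72% of genes were called higher. It turned negative in 2 of 6 fits, without unstimulated library 2 or bicuculline library 3, with -0.068 as the lowest value. Whole cells lay between, with 1.44, 1.07 and 1.60 FPKM unstimulated and 2.53, 1.73 and 2.96 after bicuculline, all 3 bicuculline libraries above all 3 unstimulated ones. The fold was 1.76, 1.61 and 1.85, on average 1.74 ± 0.124 (SD, n = 3). The log2 change of 0.62 ± 0.23 missed the threshold (adjusted p = 0.305) and passed it with the block (adjusted p = 8.57e-04), where 3.72% of genes were called higher.

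The ratio of nuclear to cytosolic Npas4 was lower after bicuculline in each replicate. It was 2.49, 2.76 and 2.53 in unstimulated cells, on average 2.59 ± 0.149 (SD, n = 3), and 1.17, 1.31 and 1.31 after bicuculline, on average 1.26 ± 0.0816. The ratios do not overlap. Counting error was 3.36 to 7.33% for the levels they rest on, so their small SDs do not measure precision. Each FPKM is relative to its own library, so a ratio compares shares of nuclear and cytosolic RNA, not numbers of molecules. In unstimulated cells the log2 difference was 1.00 ± 0.23 (adjusted p = 0.00125), one of the 39% of genes called higher, and with quantile normalization it was 0.43 and did not pass (adjusted p = 0.112). After bicuculline it was 0.27 ± 0.23 (adjusted p = 0.323), 0.27 with the block (adjusted p = 0.00596, among 35.2% of genes called higher) and -0.089 with quantile normalization. The bicuculline response in the nucleus minus that in the cytosol was -0.73 ± 0.33, which did not pass limma's test (adjusted p = 0.283). With replicate number as a block the SE was 0.11 and it passed (adjusted p = 0.00249), among 6.92% of genes called lower. It passed in all 12 block fits without 1 library (adjusted p 0.00208 to 0.0120). Without the block it passed in the fit that left out replicate 2 (-0.76, adjusted p = 0.0489). That replicate was the lowest library of every triptolide group, so leaving it out narrows the spread (SE 0.145) and the pass is not separate support. Over all genes the median of this difference was -0.11, and Npas4 ranked as number 103 of 14205 from the lowest. Mitochondrially encoded RNAs held 9.59 to 12.5% of FPKM in the nuclear libraries and 8.90 to 12.3% in the cytosolic ones. The summed level of the 4 astrocyte markers was 383 to 436 FPKM in unstimulated nuclei and 336 to 377 after bicuculline, and in the cytosol it overlapped (302 to 388 and 305 to 397). On the first principal component of the triptolide libraries (70.1% of the variance) unstimulated nuclei scored -46.07, -43.07 and -47.54 in replicates 1, 2 and 3 and nuclei after bicuculline -30.76, -48.31 and -27.56, so replicates 1 and 3 lay nearer to the cytosolic libraries, which scored 43.81, 45.1 and 45.51 unstimulated and 34.11, 40.32 and 40.94 after bicuculline. The part of these in the result was not tested.

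**Figure D4:**
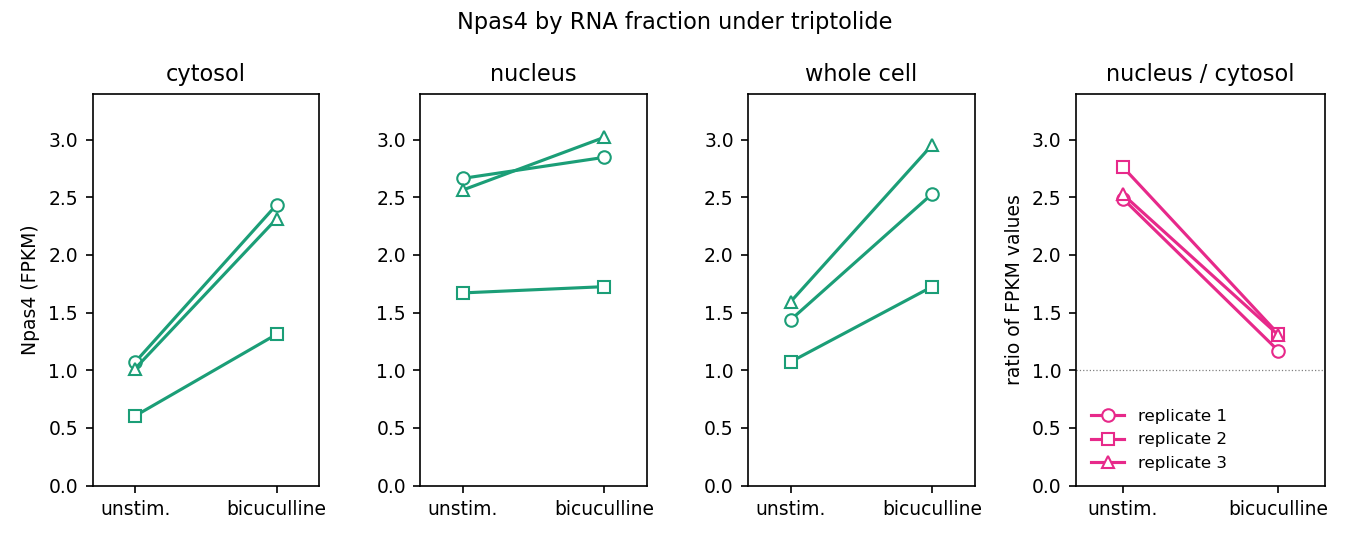
Npas4 under triptolide in FPKM, unstimulated and after bicuculline, with a line for each replicate number, in cytosol, nucleus and whole cells, and in the right panel the ratio of nuclear to cytosolic FPKM. The cytosolic level is 2.17 to 2.28 times higher after bicuculline, the nuclear level 1.03 to 1.18 times, and the ratio goes from 2.49 to 2.76 down to 1.17 to 1.31.

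Each of the other immediate early genes tested differed less between the fractions than Npas4 did, from -0.45 for Per1 to 0.28 for Fosb, nucleus minus cytosol; whether Npas4 departs from them was not tested. Of the 24 genes listed beside Npas4 16 were tested under triptolide. Here too a gene could enter through its bicuculline libraries alone. Fosb had means of 0.351 to 0.501 FPKM in the unstimulated groups and 1.38 to 1.44 after bicuculline. In the cytosol 4 of 16 rose by limma's test (as 3.18% of all genes did) and 14 with the block (14.5% of all genes), at a median of 0.47 in log2. In the nucleus 4 of 16 rose (as 0.986% of all genes did) and 12 with the block (7.72% of all genes), with a median of 0.39. In whole cells 1 rose, Fosb (1.04), as did 0.0141% of all genes, and 12 with the block (3.72% of all genes). Fosb (0.90 in the cytosol, 1.18 in the nucleus) and Cyr61 (0.95 and 0.90), a secreted matrix protein gene, rose in both fractions. Per1, a clock gene also driven by CREB, rose in the cytosol (0.79) and not past the threshold in the nucleus (0.34, adjusted p = 0.136). For the difference, nucleus minus cytosol, limma called 0 of the 16 (0.556% of all genes were called), with 1 at an unadjusted p under 0.05. With the block 1 of the 16 was called, Per1 (-0.45, adjusted p = 0.0109), near the 6.92% of all genes called lower. The median of the 16 was -0.01. Of all 14205 genes, 124 rose by at least 0.5 in log2 in the cytosol. Of these, 115 stayed below 0.5 in the nucleus, as Npas4 did.

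**Figure D5:**
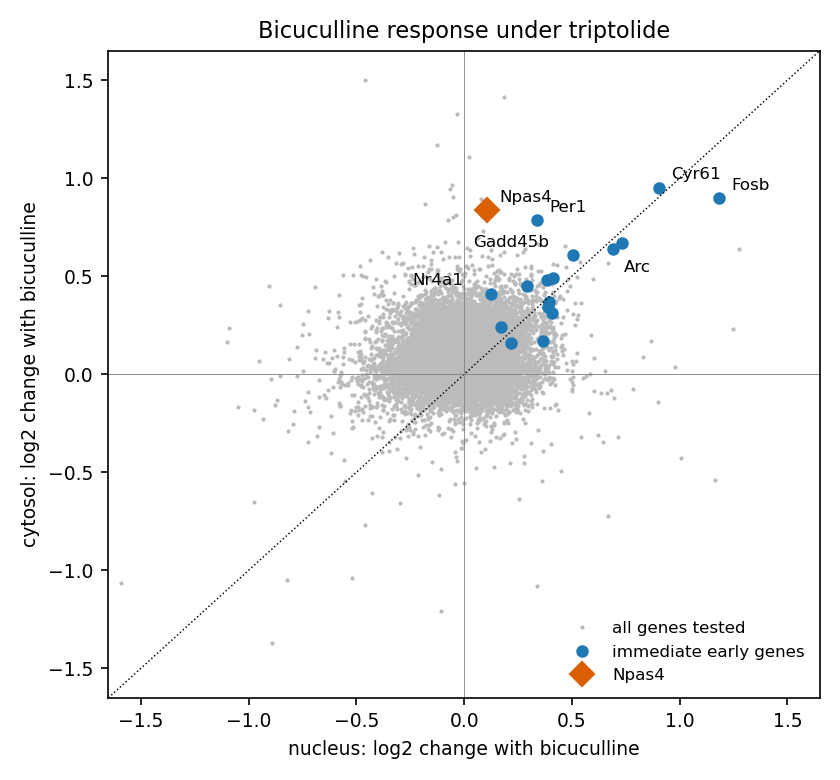
Log2 change with bicuculline under triptolide in the nucleus (x axis) and in the cytosol (y axis) for 14205 genes (grey), the immediate early genes (blue) and Npas4 (orange); 11 genes lie outside the axes, and the dotted line marks equal change. Npas4 lies at 0.11 in the nucleus and 0.84 in the cytosol, above the line, and most of the immediate early genes lie near it.

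How many relatives and cofactors of Npas4 were called after bicuculline under triptolide depended on the block, as it did for all genes. In the cytosol 3.18% of all genes rose in the fit without it and 14.5% with it, in the nucleus 0.986% and 7.72%, and in whole cells 0.0141% and 3.72%. Of 14 bHLH-PAS genes tested, 1 rose in the cytosol, the coactivator gene Ncoa2 (0.40 ± 0.10, adjusted p = 0.0498), and 7 with the block, while in the nucleus and in whole cells limma called 0, with 3 and 2 at an unadjusted p under 0.05 and 1 in each with the block. Arnt2 (0.13) and Arnt (0.22) did not pass in the cytosol, nor in the nucleus (-0.03 and -0.12). For the difference of responses, nucleus minus cytosol, limma called 0 of 14, with 6 at an unadjusted p under 0.05. The block called 4, all lower, as were 6.92% of all genes: Npas2 (-0.57), Clock (-0.43), Arntl (-0.34) and Ncoa2 (-0.33). All 14 had a negative difference, with a median of -0.34 against -0.11 over all genes. In unstimulated cells 9 of the 14 were higher in the nucleus and 1 lower, where 39% of all genes were higher and 28% lower, and the leading ones were Arntl2 (1.5), Ncoa3 (1.19), Hif3a (1.16) and Arnt (0.87). A low gene could enter this fit through the nuclear libraries alone, so the count is not independent of the filter. Among 25 upstream genes 4 rose in the cytosol: the calcium channel gene Cacna1d (0.41), Mkl1 (0.38), a cofactor of SRF, Srf (0.34) and Crebbp (0.33), a coactivator of CREB. In the nucleus 1 did, Grin1 (0.32, adjusted p = 0.0240), an NMDA receptor subunit, and in whole cells limma called 0, with 9 at an unadjusted p under 0.05. With the block 11 of 25 rose in the cytosol, 7 in the nucleus and 4 in whole cells. Of the 8 reported targets 1 rose in the cytosol, Homer1 (0.28, adjusted p = 0.0239), a scaffold gene of the postsynapse, and 0 in the nucleus and in whole cells (3 and 2 at an unadjusted p under 0.05). With the block 3 rose in the cytosol, 4 in the nucleus and 1 in whole cells. Of 17 NuA4 subunits 1 rose in the cytosol, Epc2 (0.30, adjusted p = 0.0498), and 0 in the nucleus and in whole cells (2 and 3 at an unadjusted p under 0.05). With the block 4 rose in the cytosol, 0 in the nucleus and 2 in whole cells.

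Npas4 had the largest difference between the experiments of all 13814 genes tested in the fit that joined DRB and whole triptolide cells. The log2 response to bicuculline in DRB cells exceeded that in whole triptolide cells by 4.12 ± 0.39 (limma adjusted p = 8.58e-04), and 4.23 without replicate 2 (adjusted p = 2.35e-04). Of 22 immediate early genes 10 also had a larger response under DRB, as 0.138% of all genes had. A gene could enter this fit through the DRB bicuculline libraries alone, so the count is not independent of the filter. Maff had a mean of 3.52 FPKM in them, 0.489 in unstimulated DRB cells, and 0.306 and 0.480 in whole triptolide cells without and with bicuculline. The mean level of Npas4 under DRB was 4.29 times that of whole triptolide cells before stimulation and 67.4 times after bicuculline. The unstimulated difference was 1.69 ± 0.28 (adjusted p = 2.35e-04), when 48% of genes were called higher, and it was 1.24 without replicate 2 (adjusted p = 3.40e-04). All genes had a median of 0.26 in that comparison, so Npas4 stood 1.42 above it, and with scaling by median ratio the difference was 1.42. Inhibitor, duration of inhibition and the sets of libraries all differ between the experiments and cannot be told apart, and a block cannot be fitted to the unstimulated difference. The summed level of the oligodendrocyte markers was 85.3 to 148 FPKM under DRB and 22.8 to 60.9 under triptolide, and that of the general neuronal markers 1476 to 1670 and 904 to 1210. Mitochondrially encoded RNAs held 4.73 to 5.96% and 8.72 to 12.5%. The part of these in the difference was not tested.

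Of the 8 genes whose level followed Npas4 most closely over all 27 libraries, 6 are on the list of 24 immediate early genes. Pearson's r of log2(FPKM + 0.5) was computed over all 27 libraries for 11451 genes, and its median was 0.57. The libraries share groups and replicate numbers, so r is a description. The highest were Nfil3 (0.983), a bZIP repressor, Gadd45g (0.983), Nr4a1 (0.982), an orphan nuclear receptor, Maff (0.976), Fosb (0.975), Fos (0.975), Tiparp (0.973) and the kinase gene Sik1 (0.971). The ninth gene had 0.964, and 61 genes were above 0.9. Within the 18 triptolide libraries alone, where the median r was 0.11, the closest were Numb (0.944), an inhibitor of Notch signalling, Per1 (0.937), Klhdc8b (0.935), Med26 (0.930), a Mediator subunit, and Cit (0.929). The 8 and the 5 share 0 genes. Numb had an r of 0.42 over the 27 libraries, and Per1 0.90. In turn, the r of the 8 within triptolide ran from 0.54 (Fos) to 0.92 (Nr4a1). With group means removed from the 27 libraries it ran from 0.15 (Maff) to 0.90 (Nr4a1).

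The protein-coding neighbours of Npas4 within 50 kb passed no test of the responses under DRB. Peli3, 41228 bp away, held 3.43 FPKM unstimulated, 3.97 after bicuculline and 3.67 after BDNF in the group means. Mrpl11, a mitochondrial ribosomal protein gene 17356 bp away, held 13.5, 13.6 and 12.5, and Slc29a2, a nucleoside transporter gene 33544 bp away, 6.35, 6.46 and 6.36. B4gat1, 48510 bp away and merged with Brms1 in the table, held 29.1, 29.4 and 28.9. Their log2 changes ran from -0.10 to 0.19, and none of the 4 passed limma's test in either response. Few genes did: 0.308% of all genes rose after bicuculline and 0.638% after BDNF. Under triptolide Slc29a2 rose in the nucleus after bicuculline (0.46 ± 0.08, adjusted p = 0.0138), as 0.986% of all genes did. Npas4 did not pass the test there. Peli3 did not pass limma's test in any RNA fraction. With the block it passed, as Npas4 did, in whole cells (0.34, adjusted p = 0.0201) and the cytosol (0.29, adjusted p = 0.0165). The block called 3.72% and 14.5% of all genes higher there. In the nucleus Peli3 did not pass with the block (0.14, adjusted p = 0.234). The block called neither Mrpl11 nor B4gat1 after bicuculline under triptolide.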

How the data were processed

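The authors deposited 1 table of FPKM values (fragments scaled to gene model length and library size) for 27 libraries, per the file headers on FASTDB gene models of mm10. Libraries were made with a stranded mRNA kit from 200 ng of total RNA, per the labels' protocols. STAR 2.4.0, SAMtools, Picard and FastQC come from the submitters' processing notes; counting and its strand setting are not described, so overlapping antisense reads could add to a gene. Depth was estimated from the FPKM worth of 1 fragment in short gene models (under 1500 bp), and counting errors cover counting only.

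Values were used as log2(FPKM + 0.5), which understates changes of low genes. Genes with at least 1 FPKM in at least 3 libraries of a fit were tested with limma 3.58.1 in R 4.3.3, with 1 mean per group, trend and robust variance moderation and Benjamini-Hochberg adjustment over all genes, at 0.05. The fits covered the 9 DRB libraries, the 18 triptolide libraries, and DRB with triptolide whole cells, unstimulated and with bicuculline. Replicate numbers pair the libraries: deviations from group means of the same number correlated at 0.463 to 0.902 under DRB and 0.256 to 0.692 under triptolide, and of other numbers at -0.62 to 0.154 and -0.446 to -0.0709. The labels do not say whether numbers are separate cultures, so p-values measure the spread between these libraries, which may be technical. The fit without the block was tested on simulated data with independent noise in each library, which lack this pairing of replicate numbers. The fit with the block was not tested that way.

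The gene and the lists were chosen with earlier results of these data known. Named genes were called members of the lists (up to 6 by size), Arnt and Arnt2, the 8 and 5 genes most like Npas4, and neighbours; further genes are named where a count or figure points to them. Alternatives were other pseudocounts, filters, scalings, variance moderation, the block, and leaving out libraries. Leaving out replicate 2 throughout, and leaving out libraries with the block, were added after seeing the data. Python 3.11.15, pandas 2.3.3 and matplotlib 3.10.9 were used.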

Additional observations from a re-analysis of the deposited data

Results flagged for a closer look

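The bicuculline response of Npas4 differed between the inhibitors by a log2 value of 4.12, higher with DRB, whole triptolide cells being the other side, by limma's test of the difference itself. It also differed between the RNA fractions under triptolide, with replicate number as a block, by -0.73 on the log2 scale, nucleus minus cytosol. Without the block that difference did not pass the test (adjusted p = 0.283).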

How the results depend on the processing

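Of 175 recalculated Npas4 results 158 kept their direction and side of the threshold, 13 passed it newly, 1 no longer passed and 3 changed sign; the causes were not tested. With replicate number as a block Npas4 newly passed for BDNF minus bicuculline (-1.12; -1.11 with median-ratio scaling too), whole cells (0.62; 0.58), cytosol (0.84; 0.76), nucleus minus cytosol after bicuculline (0.27; 0.35) and the difference of responses (-0.73; -0.67). The block changed no other Npas4 call. Pseudocount 0.1 gave 1.08 in the cytosol. Quantile normalization gave 0.43 for nucleus minus cytosol unstimulated and -0.089 after bicuculline.

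Counts of called genes moved more. The block, alone and with median-ratio scaling, gave 76 and 65 (bicuculline, DRB), 199 and 180 (BDNF), 72 and 68 (BDNF minus bicuculline), 601 and 300 (whole cells), 1862 and 2117 (nucleus), 2175 and 1006 (cytosol), 1387 and 1051 (nucleus minus cytosol response) and 38 and 40 (DRB minus triptolide), against 41, 85, 17, 5, 257, 465, 79 and 19. Moderation with neither trend nor robust weights gave 27 for BDNF minus bicuculline and 10 for whole cells, pseudocount 1 gave 3 for whole cells, and pseudocount 0.1 gave 11 for DRB minus triptolide. Without a filter 561 (nucleus), 106 (cytosol), 29 (response difference), 19387 and 16850 (nucleus minus cytosol, unstimulated and bicuculline) were called. Quantile normalization gave 682, 2 and 48 for nucleus, cytosol and response difference, and median-ratio scaling 24 for cytosol. Without replicate 2 the counts were 2 (whole cells), 69 (nucleus), 46 (cytosol), 128 (response difference) and 11 (DRB minus triptolide). Npas4 newly passed in that setting in the cytosol (0.90) and for the response difference (-0.76), both with a smaller SE.

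Leaving out 1 library gave Npas4 -0.068 to 0.31 in the nucleus, 0.68 to 1.06 in the cytosol and -0.95 to -0.52 for the response difference. Counts ran from 27 to 38 (bicuculline, DRB), 50 to 68 (BDNF), 9 to 20 (BDNF minus bicuculline), 1 to 5 (whole cells), 21 to 520 (nucleus), 12 to 334 (cytosol), 9 to 671 (response difference) and 9 to 19 (DRB minus triptolide). Of the 8 genes most like Npas4, 3 remained with Spearman's rho, and 3 with group means removed; of the 5 within triptolide, 1 remained with rho. At 186 to 887 fragments under triptolide, counting error limits a level to 3.36 to 7.33%.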

Other observations

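A gene model without a symbol (GSMG0019960) lies 1041 bp upstream of Npas4 on the same strand, at chr19:4991357-4993114, where GENCODE annotates a transcript still to be tested experimentally. It was chosen after its values were seen. Its level was low, and in the nucleus under triptolide it held 0.928 ± 0.115 FPKM unstimulated and 0.462 ± 0.0718 after bicuculline (SD, n = 3). The level after bicuculline was 0.497 ± 0.0289 times the unstimulated one in nuclei, 0.507 ± 0.133 times in whole cells, 0.532 ± 0.338 times in cytosol and 0.620 ± 0.223 times under DRB, lower in 3 of 3 replicates each time. The level rested on 6 to 28 fragments a library in the cytosol and 14 to 37 under DRB, against 46 to 124 in nuclei, so counting error is large in the first 2. After BDNF it was 1.04 ± 0.0135 times, a difference within the counting error of 21 to 37 fragments. In limma's fit without a filter on low values the nuclear change was -0.57 ± 0.08 (adjusted p = 0.00543), and the changes in whole cells (adjusted p = 0.132), in cytosol (adjusted p = 0.536) and under DRB (adjusted p = 1) did not pass.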
